A study of Mus musculus with 6 samples.

Results

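The mouse genome encodes 7 dedicated inhibitors of cyclin-dependent kinases (CDKs), 3 of the Cip/Kip family (Cdkn1a, Cdkn1b and Cdkn1c) and 4 of the INK4 family (Cdkn2a, Cdkn2b, Cdkn2c and Cdkn2d). Their levels were followed here in the parotid, a salivary gland built mostly of enzyme-secreting acinar cells, with and without irradiation. The members were taken by gene symbol, and all 7 matched 1 row each among the 52636 genes of the count tables. The family was chosen by the level of Cdkn1a, which was known to differ between irradiated and untreated glands in these same data. The differences of the members between the groups are therefore given as a description: no p-value is printed for them, and the count of members past the threshold of the fit over all genes is given with nothing read from it.

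The 6 samples were parotid glands of FVB mice aged 28 days, 3 untreated and 3 irradiated. The labels name 1 dose of 5 Gy in a protocol text attached to every sample, which is read here as describing the irradiated group. No genetic change is named for either group. The interval between irradiation and collection is not stated (a mark D5 on the irradiated tables is explained by no label), nor is it stated that each sample came from its own mouse, so errors and p-values cover the spread between these samples, which may be technical. Acinar products dominated all libraries, with 9 marker genes (among them Amy1, Bpifa2 and Aqp5) summing to between 422123 and 576693 CPM (counts scaled to a common library size).

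CDK inhibitors bind CDKs, or CDKs joined to cyclins, and slow the passage of a cell into DNA synthesis. Cip/Kip proteins act on CDK complexes with cyclins A, D and E, while INK4 proteins bind CDK4 and CDK6 and keep D-type cyclins off them. Blocked kinases leave the RB family of proteins active, and these hold E2F factors and, in the DREAM complex, many cell cycle promoters silent. Cdkn1a, which encodes p21, is a classical target of the transcription factor p53 after DNA damage, whereas p27, encoded by Cdkn1b, is controlled to a large extent by protein turnover.

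Libraries held 7108359 to 15036193 counts in genes. The shallowest was irradiated replicate 2, which also had 10.01% of its reads unaligned, against 3.75% to 4.33% in the others, and 184 reads set aside for low alignment quality, against 342749 to 491591. Untreated replicate 2 held 2.97 CPM summed over 16 T cell markers, against 24.6 and 27.6 CPM in the other untreated libraries.

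Cdkn1a (ENSMUSG00000023067; chromosome 17, 29090976 to 29100727, build mm10, plus strand) has 2 RefSeq start sites 2790 bases apart. The 250 bases before each are shown because Cdkn1a was the member with the large difference, and those before the start of Cdkn1b serve as a contrast from the same family. Capitals mark matches to GGGCGG on either strand, the letters of the GC box, and to the p53 half-site, or to 2 such half-sites in a row with at most 1 letter off. Each is read 5′ to 3′ on the plus strand, build GRCm38.p6, from RefSeq.
Cdkn1a first start, chr17:29090729-29090978: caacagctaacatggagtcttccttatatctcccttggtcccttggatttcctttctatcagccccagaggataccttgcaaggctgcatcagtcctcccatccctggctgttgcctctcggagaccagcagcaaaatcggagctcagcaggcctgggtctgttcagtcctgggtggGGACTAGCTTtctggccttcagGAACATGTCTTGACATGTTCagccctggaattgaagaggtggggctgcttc
Cdkn1a second start, chr17:29093519-29093768: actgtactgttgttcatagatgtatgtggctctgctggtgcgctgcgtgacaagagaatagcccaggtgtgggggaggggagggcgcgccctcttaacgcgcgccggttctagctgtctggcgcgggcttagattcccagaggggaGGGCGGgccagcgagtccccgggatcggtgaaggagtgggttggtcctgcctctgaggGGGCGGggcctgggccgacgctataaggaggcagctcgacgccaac
Cdkn1b start, chr6:134920151-134920400: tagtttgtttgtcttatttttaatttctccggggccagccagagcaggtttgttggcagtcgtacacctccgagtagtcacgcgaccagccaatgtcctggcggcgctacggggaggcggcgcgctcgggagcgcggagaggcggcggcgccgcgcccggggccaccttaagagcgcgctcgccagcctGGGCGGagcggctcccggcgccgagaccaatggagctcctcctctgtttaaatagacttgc
The window before the first Cdkn1a start holds the run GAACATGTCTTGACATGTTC at chr17:29090928-29090947, 20 bases that match the double p53 half-site with 1 letter off and begin 51 bases before that start and 2841 bases before the second. Such a run stood in 25 of 32851 mouse promoter windows of the same length (0.0761%). A single half-site stood in 7.13% of windows. The window before the second start has 2 matches to GGGCGG and no p53 half-site, and lies between the 2 starts within the gene's span. Cdkn1b has 1 match to GGGCGG, letters found in 32.7% of windows. Of the 7 members, 6 had a window, 9 windows in all, and the double half-site occurred in the 1 Cdkn1a window alone. A single half-site was present before Cdkn2d. The search for the double half-site was added after the sequence had been seen. These are matches of letters, and binding was not measured.

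Cdkn1a was scarce in untreated glands, with 26, 21 and 34 reads in replicates 1, 2 and 3, or 2.14, 1.84 and 2.27 CPM after scaling of library sizes by the trimmed mean of M-values (TMM). In irradiated glands it had 327, 216 and 209 reads, or 21.8, 25.98 and 18.04 CPM. Every irradiated library stood far above every untreated one, and replicate 2, the shallowest library, was the highest. The mean went from 2.08 ± 0.222 to 21.9 ± 3.97 CPM (SD, n = 3 each), which the fit put at 3.38 on the log2 scale (SE 0.19), that is 10.4-fold. By fold change it was the 5th highest of 12885 genes that passed the filter on low counts, of which 10 had a log2 fold change above 3. In level per kilobase of exon it moved from above 19.3% of these genes to above 80.3% of them. Its spread among untreated libraries, 0.222 CPM, was below the 0.403 CPM that counting error alone would give, so it cannot be told from counting noise. An unclassified transcript on the opposite strand shares 273 exon bases with Cdkn1a in the annotation and was not analysed here.

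Cdkn1b (ENSMUSG00000003031; chromosome 6, 134920401 to 134925513), the gene of p27, was the most evenly expressed member. It stood at 21.7, 21.1 and 21.5 CPM in untreated replicates 1, 2 and 3 and at 18.9, 18.5 and 19.6 CPM in the irradiated ones. The irradiated values were all lower, by little, and the groups did not overlap. The mean was 21.4 ± 0.337 CPM in untreated and 19.01 ± 0.545 CPM in irradiated glands (SD, n = 3 each), a log2 fold change of -0.17 (SE 0.12). Both SDs were below the counting error of 1.30 and 1.31 CPM, so the small spread within groups is no measure of precision. With libraries scaled by their totals alone, the log2 fold change was -0.03 and the groups overlapped, at 18.9 to 21.5 CPM in untreated and 18.7 to 21.7 CPM in irradiated libraries.

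Cdkn1c (ENSMUSG00000037664; chromosome 7, 143458339 to 143461050, minus strand) encodes p57, the imprinted member of the family, expressed chiefly from the maternal copy. It had 2.39, 1.66 and 5.54 CPM in untreated replicates 1, 2 and 3 and 1.53, 2.29 and 1.47 CPM in the irradiated ones. Untreated replicate 3, with 83 reads, stood apart from the other 5 libraries, which held 17 to 29 reads, and the groups overlapped. The log2 fold change was -0.91 (SE 0.42) with all libraries and -0.23 without untreated replicate 3. In that library fibroblast markers were also at their highest of the 6, at 1782.5 CPM summed over 8 genes against 884.0 to 1240.1 CPM elsewhere. Fat cell markers summed to 393.8 CPM over 6 genes there, against 148.1 to 249.5 CPM elsewhere. The macrophage, basal and myoepithelial, and skeletal muscle sums were also highest in that library. They were 214.3, 95.2 and 586.9 CPM, against at most 205.1, 87.3 and 564.3 CPM elsewhere. The part of these cells in the Cdkn1c value was not tested, and in whole tissue fewer cells of a type and less RNA per cell cannot be told apart.

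Among the INK4 genes, Cdkn2c (ENSMUSG00000028551; chromosome 4, 109660876 to 109667189), the gene of p18, was the most abundant. It stood at 6.83, 4.63 and 6.80 CPM in untreated and 5.19, 6.01 and 4.49 CPM in irradiated replicates 1, 2 and 3. The groups overlapped, and the log2 fold change was -0.23 (SE 0.23). Cdkn2d (ENSMUSG00000096472; chromosome 9, 21288410 to 21291407), the gene of p19 of the INK4 type, stood at 0.658, 1.14 and 2.40 CPM in untreated and 1.73, 1.20 and 0.604 CPM in irradiated replicates. The groups overlapped, with the highest value in an untreated and the lowest in an irradiated library. Its log2 fold change of -0.25 (SE 0.52) became 0.42 without untreated replicate 3 and 0.07 without irradiated replicate 3.

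Cdkn2b and Cdkn2a lie next to each other on chromosome 4 (89306299 to 89311039 and 89274471 to 89294653) and did not pass the filter on low counts. Cdkn2b, the gene of p15, had 3, 4 and 4 reads in untreated replicates 1, 2 and 3 and 13, 3 and 3 in irradiated ones. All libraries but irradiated replicate 1 were within 1 read of each other for this gene. Cdkn2a, whose 2 start sites serve the INK4 protein p16 and the unrelated protein ARF, had 1, 0 and 0 reads in untreated and 0, 2 and 1 reads in irradiated replicates. A count of 0 allows up to 3 reads, which is 0.200 to 0.361 CPM depending on the library (counting error only), so Cdkn2a was at or under the limit of detection in each library. No fold is given for either gene, and p16 and ARF transcripts are not separated by these counts.

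**Figure D1:**
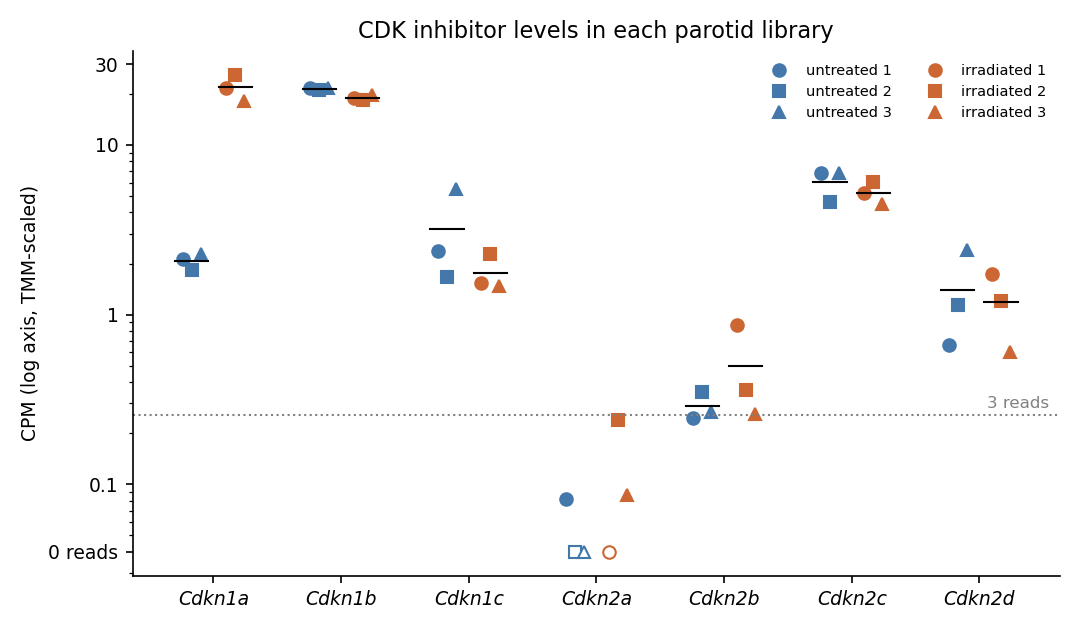
Level of each CDK inhibitor in each library, in CPM on a log axis; blue marks are untreated and orange marks irradiated libraries, the shape gives the replicate, bars are group means (none for Cdkn2a), open marks are libraries with 0 reads, and the dotted line is the mean level of 3 reads. Cdkn1a lies near 2 CPM in untreated and between 18.04 and 25.98 CPM in irradiated libraries, Cdkn1b hardly varies, and Cdkn2a stays at or under 3 reads.

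In all, 5 of the 7 members passed the filter and were fitted together with all genes by edgeR's quasi-likelihood test, with p-values adjusted by the Benjamini-Hochberg method and a threshold of 0.05. Cdkn1a alone of the 5 lay past the threshold, beside 0.652% of all tested genes called higher and 0.349% called lower. The other 4 had negative log2 fold changes and were not past it. A negative value was found for 50.9% of all tested genes. The groups did not overlap for 2 members, Cdkn1a upward and Cdkn1b downward, beside 10.6% of all genes in each direction and 21.2% in both together. The choice of the family rested on this contrast, so neither count bears on the members. The median log2 fold change was -0.23 over the 5 and -0.01 over all tested genes.

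Levels per kilobase of exon allow the members to be ranked against each other. In untreated glands Cdkn1b led at 4.71 ± 0.0741 CPM per kilobase (SD, n = 3), followed by Cdkn2c at 2.27 ± 0.469, Cdkn1c at 1.57 ± 1.01, Cdkn2d at 0.889 ± 0.572, Cdkn1a at 0.586 ± 0.0624, Cdkn2b at 0.207 ± 0.0392 and Cdkn2a at 0.0234 ± 0.0405. Cdkn1b lay above Cdkn2c in every library, and Cdkn1a above Cdkn2b. The neighbours from Cdkn2c down to Cdkn1a overlapped over the 3 libraries. In irradiated glands Cdkn1a came first at 6.17 ± 1.12 CPM per kilobase, above Cdkn1b at 4.18 ± 0.120 and Cdkn2c at 1.95 ± 0.284, with no overlap between these 3. Below them Cdkn1c, at 0.864 ± 0.223, exceeded Cdkn2d in mean, at 0.749 ± 0.358, with overlapping ranges.

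The make-up of the family was thus reordered. Cdkn1a formed 6.17%, 5.97% and 5.17% of the summed level per kilobase in untreated replicates 1, 2 and 3 and 41.7%, 45.8% and 40.9% in irradiated ones. Cdkn1b went from 46.9% ± 7.74 to 29.5% ± 4.71 of the sum (SD, n = 3 each), with its own level per kilobase nearly constant. The ratio of Cdkn1a to Cdkn1b per kilobase was 0.124 ± 0.0117 in untreated and 1.48 ± 0.309 in irradiated glands. The sum of all 7 members was 9.75, 8.66 and 12.3 CPM per kilobase in untreated and 14.7, 16.0 and 12.4 in irradiated replicates. Those ranges nearly meet, since untreated replicate 3, high in Cdkn1c and Cdkn2d, came close to irradiated replicate 3. Without Cdkn1a the sum of the other 6 was 9.67 ± 1.83 against 8.19 ± 0.734 CPM per kilobase, and the INK4 genes alone summed to 3.39 ± 0.791 against 3.15 ± 0.726. Exon length enters these shares: with the longest transcript in place of all exons, Cdkn1a formed 9.13% and 55.1% of the sum.

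**Figure D2:**
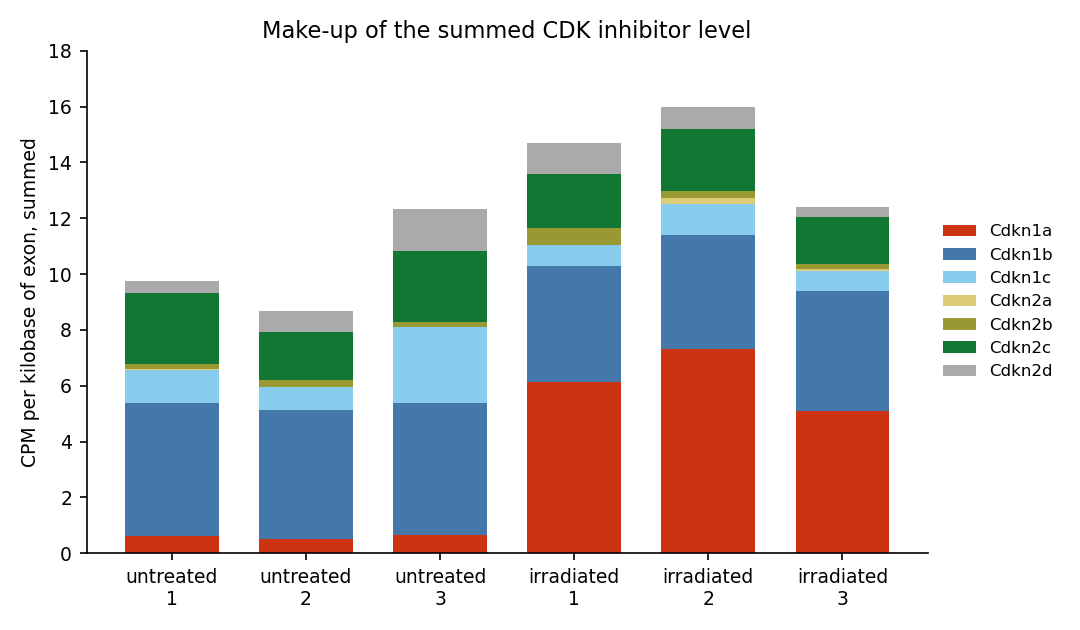
Summed level of the 7 CDK inhibitors in each library, in CPM per kilobase of exon, with each member as a coloured segment. The red segment of Cdkn1a is 5.17% to 6.17% of the bar in untreated and 40.9% to 45.8% in irradiated libraries, and the Cdkn1b segment keeps nearly the same height in all 6.

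The fold change of Cdkn1a moved between 3.25 and 3.54 over 13 other settings, which were a different test, scaling, count filter or replicate term, or 1 library left out. The lowest value came without irradiated replicate 2. Cdkn1c ranged from -1.21 to -0.23 and Cdkn2d from -0.69 to 0.42, the extremes arising where 1 library was left out. Cdkn1b kept to between -0.20 and -0.03, and Cdkn2c to between -0.39 and -0.08.

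**Figure D3:**
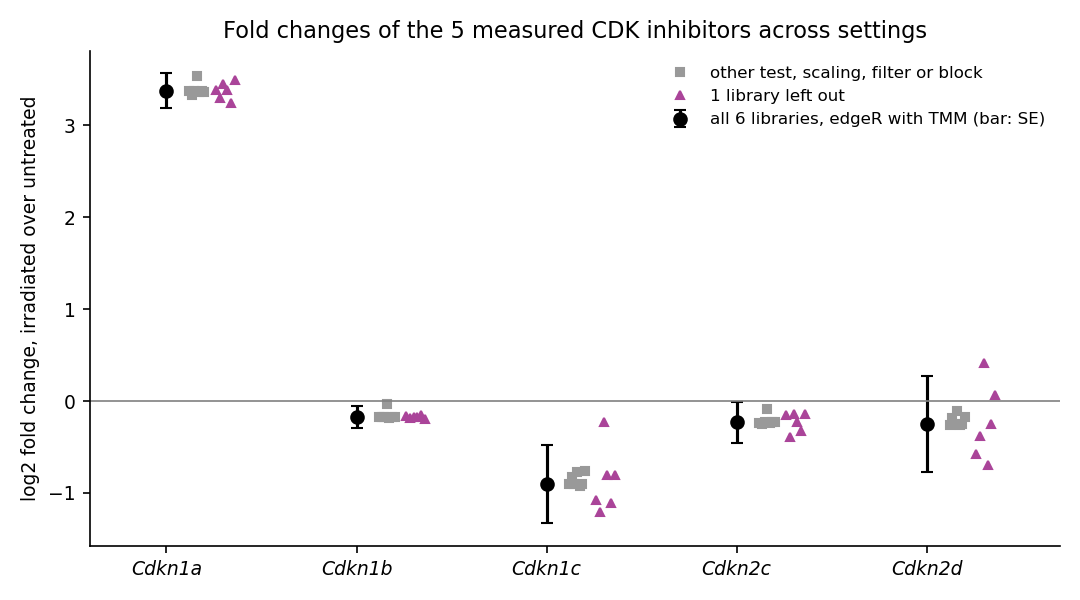
Log2 fold change of irradiated over untreated glands for the 5 CDK inhibitors that passed the count filter; black points are edgeR with TMM on all 6 libraries with SE bars, grey squares another test, scaling, filter or replicate block, and purple triangles 1 library left out. Cdkn1a stays between 3.25 and 3.54, while Cdkn1c and Cdkn2d shift with single libraries.

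The kinases and cyclins on which these inhibitors act were measured next. Of 12 tested, 2 rose and 10 did not pass, beside 0.652% of all genes called higher, and their median log2 fold change was 0.44 against -0.01 over all genes. Ccnd1, which encodes cyclin D1, the partner of CDK4 and CDK6, stood at 43.0, 36.6 and 36.2 CPM in untreated replicates 1, 2 and 3 and at 68.1, 49.9 and 75.4 CPM in irradiated ones. All irradiated libraries were above all untreated ones, and the gene rose by 0.74 (SE 0.14) on the log2 scale (edgeR, adjusted p = 0.015). Ccnd2, which encodes cyclin D2, had 15.3, 11.3 and 14.3 CPM against 24.2, 22.4 and 17.9 CPM. It rose by 0.66 (SE 0.15) on the log2 scale (edgeR, adjusted p = 0.0329). Both calls were lost when the second or the third untreated library or the first irradiated one was left out, and that of Ccnd2 also without irradiated replicate 2. With limma-voom or in edgeR without robust shrinkage neither was called, and with DESeq2 or the replicate block that of Ccnd2 was lost. Ccnd3 (0.15, SE 0.13), Cdk4 (-0.21, SE 0.11) and Cdk6 (0.42, SE 0.20) did not pass.

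RB proteins, E2F factors and DREAM subunits, which stand downstream of the kinases, had no call among 16 tested. Over all tested genes 1% were called in either direction, so 0 calls in a list this short says little. The median log2 fold change of the 16 was 0.12. The 2 most abundant, Rbbp4, a histone-binding subunit, and Rbl2, which encodes the RB relative p130, were at 0.07 (SE 0.11) and 0.03 (SE 0.12). Rb1 (0.56, SE 0.20), Rbl1 (1.06, SE 0.38) and E2f1 (0.87, SE 0.31) were chosen after their values were seen. They had irradiated libraries above all untreated ones without passing. The groups did not overlap for 7 of the 16, all upward, beside 10.6% of all genes.

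Genes of DNA replication and mitosis that DREAM represses when p21 is active were, in these glands, not lower. Of 24 tested, 4 rose, 0 fell and 20 did not pass, 23 had a positive log2 fold change, and the median was 0.95. Over all genes 0.652% were called higher, 0.349% lower and 50.9% had a negative value, with a median of -0.01. The list was drawn up with earlier results of these data known. Its genes share a regulator, so the 24 are not independent observations. Mcm5, a subunit of the replicative helicase, had 1.73, 1.57 and 2.07 CPM in untreated and 7.26, 6.37 and 4.40 CPM in irradiated replicates 1, 2 and 3, up by 1.74 (SE 0.29) on the log2 scale (edgeR, adjusted p = 0.00413). Mki67, which marks cycling cells, rose by 0.99 (SE 0.19), and the helicase subunits Mcm3 and Mcm2 by 1.39 (SE 0.32) and 0.86 (SE 0.20); their adjusted p-values in edgeR were 0.015, 0.0405 and 0.0454. Irradiated replicate 1 was the highest library for all 4 of these genes, and without it none of the 24 was called. Without untreated replicate 1 or 2 the calls of Mki67, Mcm3 and Mcm2 were also lost, as was that of Mcm3 without irradiated replicate 3 and that of Mcm2 without untreated replicate 3 or irradiated replicate 2. With limma-voom none of the 4 was called, without robust shrinkage or with the replicate block Mcm5 alone of the 4 was, and with DESeq2 Mcm2 was not.

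Among lymphocyte markers, 2 of 16 T cell (Cd5 and Cd8b1) and 2 of 12 tested B cell markers (Bank1 and Fcrl1) rose and the others did not pass, beside 0.652% of all genes called higher. All 4 calls were lost with limma-voom and in edgeR without robust shrinkage. Those of Cd8b1 and Fcrl1 were also lost in 3 and 4 of the 6 fits that leave out 1 library, and that of Bank1 in 1. The 16 T cell markers summed to 2.97 to 27.6 CPM in untreated and 53.6 to 73.9 CPM in irradiated libraries, and 13 B cell markers to 8.04 to 49.0 and 86.8 to 95.02 CPM. In untreated replicate 2, T cell genes Cd3g, Cd8a, Zap70 and Ccr7 and B cell genes Cd79a, Cd79b, Fcrl1 and Blk had 0 reads. Cdkn1a in that library was 1.84 CPM, against 2.14 and 2.27 CPM in the untreated libraries with more lymphocyte RNA. The part of lymphocytes in the Cdkn1a, cyclin or replication gene values was not tested. Of the other marker lists, macrophages ranged from 184.5 to 214.3 CPM in untreated and from 204.2 to 205.1 CPM in irradiated libraries, endothelial cells from 84.3 to 94.7 and from 92.5 to 110.2 CPM, and basal and myoepithelial cells from 82.3 to 95.2 and from 60.1 to 87.3 CPM. The most abundant macrophage marker, Lyz2, went from a mean of 67.2 to 90.5 CPM. Of the 12 macrophage markers, 10 had negative log2 fold changes, beside 50.9% of all tested genes. Duct markers were 2371 to 2659 CPM in untreated and 1942 to 2289.9 CPM in irradiated libraries. Klk1 held most of the duct sum, at means of 1746 and 1526 CPM, and 8 of 10 duct markers had negative values. Skeletal muscle markers ranged from 464.0 to 586.9 and from 153.0 to 466.7 CPM. Neuron and Schwann markers ranged from 90.5 to 117.6 and from 81.7 to 99.8 CPM. Values were negative for 8 of 8 fibroblast, 5 of 6 fat cell and 6 of 9 acinar markers. Of the acinar markers, Car6 was called lower, at -0.79 (SE 0.18; edgeR, adjusted p = 0.0329), beside 0.349% of all genes. That call was lost in 5 of the 6 fits that leave out 1 library, with limma-voom, without robust shrinkage and with the replicate block.

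Upstream of Cdkn1a, none of 17 regulators of its transcription was called, with a median log2 fold change of 0.04. Only 1% of all tested genes were called, so 0 calls in the lists of this paragraph do not show them unchanged. The groups did not overlap for 4 of the 17, all upward, beside 10.6% of all genes. Trp53, the gene of p53, was at 8.67 ± 1.73 CPM in untreated and 9.40 ± 2.54 CPM in irradiated glands (SD, n = 3 each), a log2 fold change of 0.12 (SE 0.21). The 2 most abundant of the list, Sp1, a factor that binds GC boxes, and Cebpa, a differentiation factor, had values of 0.02 (SE 0.13) and -0.04 (SE 0.11). The regulators of Cdkn1b and Cdkn1c transcription gave no call among 8, with Foxo3 at 0.18 (SE 0.13) and Kmt2a at 0.17 (SE 0.11). The Polycomb subunits and other regulators of the INK4 genes gave none among 23, with a median of 0.02 and Phc3 and Ets2 at 0.02 (SE 0.12) and 0.08 (SE 0.11). Partners of ARF and p53 gave none among 7, with Npm1 at -0.18 (SE 0.11) and Ubtf at -0.05 (SE 0.11).

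Protein turnover is a main control of p21 and p27. The ubiquitin ligase genes and others listed for this turnover gave no call among 14, with a median of 0.07. A call in either direction was made for 1% of all tested genes. Ddb1, an adaptor of the CUL4 ligase that removes p21, was at -0.07 (SE 0.11), and Akt1, a kinase that phosphorylates both proteins, at 0.16 (SE 0.11). Dtl, the substrate receptor that brings p21 to that ligase, was at 0.74, 0.70 and 0.80 CPM in untreated and 3.20, 2.77 and 1.55 CPM in irradiated replicates 1, 2 and 3. It was higher in each irradiated library, by 1.73 (SE 0.44) on the log2 scale, and missed the threshold (edgeR, adjusted p = 0.0558). It was chosen after its value was seen. Skp2, the receptor for p27, was listed at 0 in all libraries, as was Men1 of the Cdkn1b and Cdkn1c regulators. The reason for these zeros is not known, so absence of expression cannot be read from them.

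None of the tested neighbours of the members was called, beside 1% of all tested genes called in either direction. Srsf3, a splicing factor gene 47603 bases from Cdkn1a, stood at 0.13 (SE 0.18) on the log2 scale, and Rab44, 13418 bases away on the other side, had 1 to 4 reads per library. Gpr19 and Apold1, on either side of Cdkn1b, had 2 to 16 reads and were not tested. Kcnq1 and Slc22a18, beside Cdkn1c, were at -0.10 (SE 0.27) and -0.42 (SE 0.33), and Dmrta1, beside Cdkn2b, at -0.05 (SE 0.36). In the imprinted cluster of Cdkn1c, none of 13 tested genes was called, at a median of -0.11, with Cd81 at 0.05 (SE 0.11) and Nap1l4 at -0.09 (SE 0.11). Kcnq1ot1, the noncoding RNA of that cluster that silences Cdkn1c on the paternal chromosome, was chosen after its values were seen, at 21.5, 20.5 and 32.6 CPM in untreated and 17.6, 16.96 and 16.4 CPM in irradiated replicates. Like Cdkn1c, it was highest in untreated replicate 3. Imprinted growth genes elsewhere gave no call among 9, at a median of -0.28, with Igf2r at 0.12 (SE 0.11) and Grb10 at -0.42 (SE 0.19). None of 4 tested genes around the INK4 genes of chromosome 4 was called, at a median of -0.03: Mtap beside Cdkn2a was at 0.34 (SE 0.18), and Faf1 beside Cdkn2c and Rnf11 were at -0.19 (SE 0.11) and -0.02 (SE 0.11). Kri1 and Ap1m2, on either side of Cdkn2d, were at -0.15 (SE 0.23) and -0.02 (SE 0.14).

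Other targets of p53 give a scale for the Cdkn1a value. Of 30 tested, 8 rose and 22 did not pass, beside 0.652% of all genes called higher. Some were listed because they were known to have risen in these data, so this count is no independent evidence of direction. The calls of Polk and Dglucy held in 4 and 5 of the 13 other settings, and the rest of the 8 in all 13. Gdf15, a stress cytokine, was at 3.11 (SE 0.24) on the log2 scale, Eda2r, the receptor for ectodysplasin A2, at 2.97 (SE 0.28), Zmat3, an RNA-binding protein, at 1.35 (SE 0.16) and Ccng1, cyclin G1, at 1.04 (SE 0.12). The median of the list was 0.56, and the Cdkn1a value of 3.38 (SE 0.19) was above each of the 30, with Gdf15 closest. In the 13 other settings Gdf15 ranged from 2.87 to 3.28 and Cdkn1a from 3.25 to 3.54. The family was chosen by Cdkn1a in this contrast, so its place above the list is a description only. Growth arrest genes outside the CDK inhibitors gave no call among 13, beside 1% of all tested genes called in either direction. Their median was -0.02, and the 2 most abundant, Btg1 and Tob1, were at 0.22 (SE 0.11) and 0.34 (SE 0.30). Among 10 senescence and secreted factor genes 1 rose, Igfbp7, which encodes an insulin-like growth factor binding protein, by 0.47 (SE 0.11; edgeR, adjusted p = 0.0411), and 9 did not pass, beside 0.652% of all genes called higher. The Igfbp7 call was lost when any 1 library was left out, and with DESeq2, limma-voom, edgeR without robust shrinkage or the replicate block. Il6, the cytokine often secreted by senescent cells, was listed at 0 in all libraries, and absence of expression cannot be read from that.

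**Figure D4:**
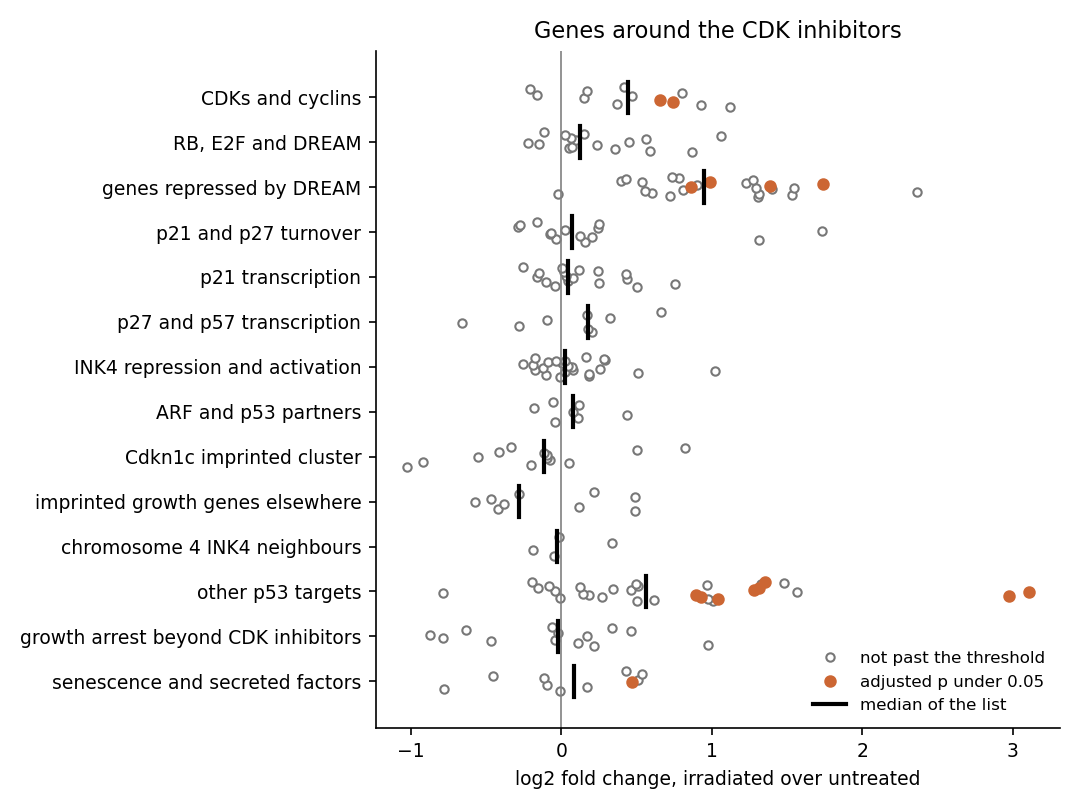
Log2 fold change of irradiated over untreated glands for every tested gene of 14 lists around the CDK inhibitors; filled orange points have an edgeR adjusted p under 0.05, open points do not, and black bars are list medians. Calls fall in 4 of the lists, and the lists of upstream regulators and turnover genes centre near 0, with medians from 0.02 to 0.17.

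Among the genes most like Cdkn1a in log2 CPM across the 6 libraries were Slc19a2 (Pearson r = 0.997), Prps1l3 (0.993), Cxcl13 (0.990) and Hipk2 (0.988), of 11509 compared. The untreated and irradiated libraries lie far apart for Cdkn1a, so r mostly measures how cleanly a gene separates the groups, and it is given as a description over 6 libraries that share their normalisation. Slc19a2, a thiamine transporter, went from 1.75 ± 0.162 to 5.53 ± 0.379 CPM (SD, n = 3 each). Cxcl13, a chemokine that attracts B cells, went from 1.06 ± 0.311 to 7.72 ± 0.808 CPM. Hipk2, a kinase that phosphorylates p53, moved far less, from 11.3 ± 0.108 to 14.5 ± 0.576 CPM. The most opposite patterns were those of Tmem191c (-0.995), Slc25a28 (-0.994), a mitochondrial iron carrier, and Lrrfip2 (-0.992). Of the compared genes 79 had r above 0.95 and 106 were as strongly negative.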

How the data were processed

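RNA of 6 parotid samples was sequenced from total RNA libraries made with a strand-specific kit, per the labels' protocols. The authors deposited raw read counts, with Ensembl genes as rows and 1 table for each sample. The submitters' processing notes name bcl2fastq, HISAT2, HTSeq and mm10; tool versions, the annotation and the strand setting of counting are not given in the sources used here, so reads from antisense partners cannot be told apart. Rows naming no gene held 32.4% to 40.7% of reads and were left out.

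Symbols, positions and exon lengths came from GENCODE M21 of the same build, which named 52489 of the 52636 genes. The test was edgeR 4.0.16 (R 4.3.3) with TMM, robust quasi-likelihood and filterByExpr with a minimum count of 10, which kept 12885 genes. Alternatives were DESeq2 1.42.0, limma 3.58.1 with voom, other scalings, no count filter, no robust shrinkage, a replicate block and each library left out in turn. Correlations used log2 CPM with a prior count of 2. The procedure was tested on simulated counts of these genes: 60.0% of 2-fold and 92.0% of 4-fold changes were called, and 0.0394% of unchanged genes. Each simulated gene had the spread of the fitted trend for its level. Genes of unusual spread were therefore absent, and these shares may not carry over to the real counts.

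Members and gene lists were chosen with earlier results of these data known. Beside the 7 members, the genes named are up to 4 called genes per pathway list with the smallest p, or its 2 most abundant, the nearest protein-coding neighbours, and the 5 genes most and 3 least like Cdkn1a, of which 1 is not reported here. Same-numbered samples of the groups did not deviate together (r of 0.0199, -0.111 and -0.107), so the numbers were not taken as pairs.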

Additional observations from a re-analysis of the deposited data

How the results depend on the processing

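The Cdkn1a value kept its direction in the 13 other settings, which was hardly otherwise possible since the groups do not overlap. Against 84 genes higher and 45 lower over all genes, limma-voom gave 20 and 5, edgeR without robust shrinkage 21 and 5, library totals alone 260 and 22, and no count filter 279 and 239. Library totals alone shifted the median of all genes to 0.14 on the log2 scale and made 92.2% of calls higher, against 65.1%. Leaving out 1 library gave 31 to 83 genes higher and 14 to 72 lower. The cause of these differences was not tested. With the replicate block, which rests on a number alone, 39 genes were higher and 14 lower, and Cdkn1a stood at 3.36. With the longest transcript as length, Cdkn1a formed 9.13% of the summed level in untreated and 55.1% in irradiated glands, against 5.77% and 42.8%; without 1 library these were 5.57% to 6.07% and 41.3% to 43.8%. At 0 to 4 reads, apart from 13 reads of Cdkn2b in irradiated replicate 1, depth does not allow a difference in Cdkn2a or Cdkn2b to be measured.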
